A study of Rattus norvegicus with 6 samples.

Results

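The 9 genes described here encode EF-hand calcium-binding proteins that retinal anatomists use to mark classes of neurons: Rcvrn, Calb2, Hpca, Scgn, Calb1, Ncald, Pvalb, Necab2 and Necab1. They were chosen by name, as the rows of the deposited gene table whose symbol equals one of these names, and each name found exactly 1 row. They are 9 of the 19623 different symbols in the table. The study sequenced neural retina RNA from rats aged 60 postnatal days in 6 samples, which the labels put into 3 groups of 2. The first group is Royal College of Surgeons (RCS) rats with human neural progenitor cells (hNPCs) placed under the retina at postnatal day 21. The second is RCS rats with sham surgery at that age, and the third is Long Evans rats with sham surgery; sham eyes were given the medium without cells. RCS rats are a strain whose photoreceptors degenerate because the pigment epithelium cannot clear shed outer segments, and Long Evans rats are the wild-type strain of the study. Only the retinal region with the graft, or the same region of a sham eye, was used. The table holds 1 value per gene and names no sample, so it is tied to none of the 3 groups. The values below compare genes within 1 library or pool, with no replicate and no test between groups.

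The EF-hand is a helix-loop-helix fold whose loop holds a calcium ion. Proteins built from it act as buffers, which take up calcium that enters a neuron, or as sensors, which change shape on binding calcium and then act on an enzyme or channel. Because retinal cell classes differ in which of them they make in quantity, antibodies to these proteins are standard labels for photoreceptors, horizontal, bipolar, amacrine and ganglion cells.

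The 9 genes ran from 5.55 to 2372 FPKM (fragments scaled to transcript length and to sequencing depth, so a level per length). All 9 reached 1 FPKM, as did 61.0% of all symbols, and 2 of the 9, Rcvrn and Calb2, reached 100 FPKM, as did 1.79% of all symbols. The median of the 9 was 23.7 FPKM, against 9.21 FPKM for the median symbol at 1 FPKM or more and 3.17 FPKM for the median of all symbols. Rcvrn alone held 87.8% of their summed level, which was 2701 FPKM or 0.789% of the sum of the table. In bulk RNA such a level joins the number of cells of a type with the RNA each cell holds, and the contributions cannot be told apart.

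From the highest to the lowest, the levels fell in steps, with 1 cluster in the middle. Rcvrn was 13.1 times Calb2 (95% counting interval 12.6 to 13.7), Calb2 was 4.11 times Hpca (3.78 to 4.47), and Hpca was 1.81 times Scgn (1.54 to 2.13). Scgn, Calb1 and Ncald lay at like levels: Scgn was 1.02 times Calb1 (0.863 to 1.21) and Calb1 was 1.11 times Ncald (0.989 to 1.25), so these neighbours were not told apart. Below this cluster, Ncald was 1.23 times Pvalb (1.06 to 1.42), Pvalb was 1.36 times Necab2 (1.13 to 1.64), and Necab2 was 2.30 times Necab1 (1.75 to 3.03). Of all 36 pairs among the 9 genes, 33 had an interval above 1, and the other 3 were the pairs within the cluster. The whole range was 427-fold, and 32.5-fold without Rcvrn. These intervals cover counting error only and say nothing of the spread between animals.

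**Figure D1:**
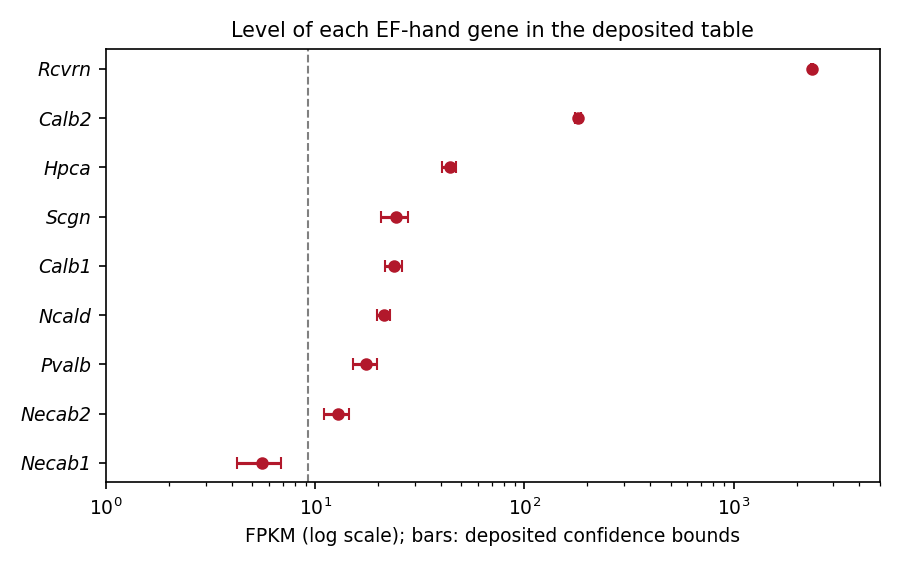
FPKM of the 9 EF-hand genes on a log axis, highest at the top, with the deposited confidence bounds as bars; the dashed line is the median of all symbols at 1 FPKM or more, 9.21 FPKM. Rcvrn at 2372 FPKM and Calb2 at 181 FPKM stand clear of the rest, Scgn, Calb1 and Ncald have overlapping bars, and Necab1 at 5.55 FPKM is the single gene left of the line.

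Rcvrn encodes recoverin, the calcium sensor of photoreceptors, which at high calcium holds back rhodopsin kinase; some bipolar cells also make it. Its row (ENSRNOG00000003633) runs from 53992826 to 54000571 on chromosome 10 (build rn5, as for all positions here). Rcvrn was listed at 2372 FPKM, with deposited bounds of 2338 and 2406, the 7th highest of all symbols. Within 8 other rod markers it stood in the middle: 3 were higher and 5 were lower, each beyond counting error, and Rcvrn was 1.81 times their median of 1313 FPKM. It was below Gngt1, a subunit of rod transducin, at 6641 FPKM and Gnat1, another transducin subunit, at 6316 FPKM. Picked after its value was seen, Sag (rod arrestin) was the nearest marker below, and Rcvrn was 1.19 times Sag (1.17 to 1.21).

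Against cones the picture differed, since Rcvrn stood above all 8 cone markers and was 70.0 times their median of 33.9 FPKM. With the geometric mean of the markers in place of the median, that ratio was 124. Rcvrn was 40.6 times Gnat2, the cone transducin subunit and the highest cone marker (38.05 to 43.3). Grk1, the rhodopsin kinase on which recoverin acts, was listed at 168 FPKM, and Rcvrn was 14.1 times as high (13.6 to 14.6). Rcvrn also exceeded Guca1b and Guca1a, which encode the sensors that turn guanylate cyclase on when calcium falls: it was 4.91 times Guca1b (4.78 to 5.03) and 6.45 times Guca1a (6.23 to 6.69).

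Calb1 encodes calbindin, a calcium buffer and the usual label of horizontal cells in rat, which some amacrine and ganglion cells also contain. Its row (ENSRNOG00000007456) spans positions 34217914 to 34242322 of chromosome 5. Calb1 was listed at 23.7 FPKM (bounds 21.5 and 26.0) and stood above all 6 measured horizontal cell markers. It was 15.7 times their median of 1.51 FPKM, and 2.19 times the highest of them, the transcription factor gene Prox1, at 10.8 FPKM (ratio interval 1.93 to 2.49). Prox1 is itself made by AII amacrine cells too. The next marker, the transcription factor gene Onecut3, was at 1.91 FPKM. Prox1 exceeded 72.9% of all symbols. Hpca, Ncald and Necab2 also stood above all 6 horizontal markers, so this place was not particular to Calb1. How much of the Calb1 level comes from cells other than horizontal cells was not tested.

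Scgn encodes secretagogin, a sensor with the same number of EF-hands as calbindin and a label of cone bipolar cells in rodents. Its row (ENSRNOG00000016628) spans positions 45214779 to 45256404 of chromosome 17. Scgn was listed at 24.3 FPKM (20.7 and 27.8) and stood above all 7 cone bipolar markers, at 5.68 times their median of 4.28 FPKM. The highest of these was Grik1, a kainate receptor subunit of OFF bipolar cells, at 16.5 FPKM, and Scgn was 1.47 times Grik1 (1.24 to 1.74). The next was the transcription factor gene Irx6 at 4.97 FPKM. Grik1 exceeded 81.7% of all symbols. Hpca and Ncald also stood above all 7 cone bipolar markers, so this place was not particular to Scgn. Scgn was also 2.67 times Cabp5, a calmodulin-like gene of bipolar cells at 9.10 FPKM (2.16 to 3.29). Scgn is also made in hormone-secreting cells: of 6 neuroendocrine genes, Ins2 (insulin) was listed at 0 and Gcg (glucagon) at 0.0955 FPKM, both looked up after their values were seen. The granin genes of that list, which neurons share, were led by Scg2 at 87.5 FPKM and Scg3 at 56.9 FPKM.

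Calb2 encodes calretinin, a calcium buffer of amacrine and ganglion cells that outlines strata of the inner plexiform layer. Its row (ENSRNOG00000016977) spans positions 52310641 to 52337700 of chromosome 19. At 181 FPKM (174 and 187) it was the 161st highest symbol. Calb2 exceeded the summed level of the 7 members below it, at 1.21 times their sum. It stood above all 10 amacrine markers, at 10.9 times their median of 16.6 FPKM, and above all 10 ganglion cell markers, at 10.8 times their median of 16.7 FPKM. Its closest comparators were Sncg (gamma-synuclein) in the ganglion list and Gad1 (a GABA-synthesizing enzyme) in the amacrine list. Calb2 was 1.25 times Sncg (1.16 to 1.35) and 3.55 times Gad1 (3.35 to 3.77). Sncg exceeded 98.9% of all symbols and Gad1 95.3%. Calb2 was 7.61 times Calb1 (6.89 to 8.42), the other classic calcium buffer of this family.

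Pvalb encodes parvalbumin, a fast calcium buffer found in AII amacrine cells of the rat. Its row (ENSRNOG00000006471) spans positions 119419896 to 119435231 of chromosome 7. Unlike Calb2, Pvalb lay near the middle of both lists: at 17.4 FPKM (15.1 and 19.7) it was 1.05 times the amacrine median and 1.04 times the ganglion median. In each list 4 of 10 markers were lower, 4 were higher and 2 were not told apart from it. The 2 amacrine markers, named after their values were seen, were Gad2 (a second GABA-synthesizing enzyme), with Pvalb at 0.948 times its level (0.807 to 1.11), and Gjd2 (the connexin of AII gap junctions), with Pvalb at 1.17 times its level (0.989 to 1.39). The 2 ganglion markers, also named after their values were seen, were the RNA-binding protein gene Rbpms at 14.5 FPKM and the glutamate transporter gene Slc17a6 at 18.9 FPKM. Parvalbumin is also abundant in fast muscle fibres. Of 10 skeletal muscle genes, 2 reached 1 FPKM, beside 61.0% of all symbols. Their summed level was 6.58 FPKM, and the myosin gene Myh4, named after its value was seen, was listed at 0. The highest, the myosin light chain gene Mylpf, was at 3.17 FPKM and Acta1 (skeletal actin) at 1.27 FPKM. The part of muscle in the level of Pvalb was not tested.

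**Figure D2:**
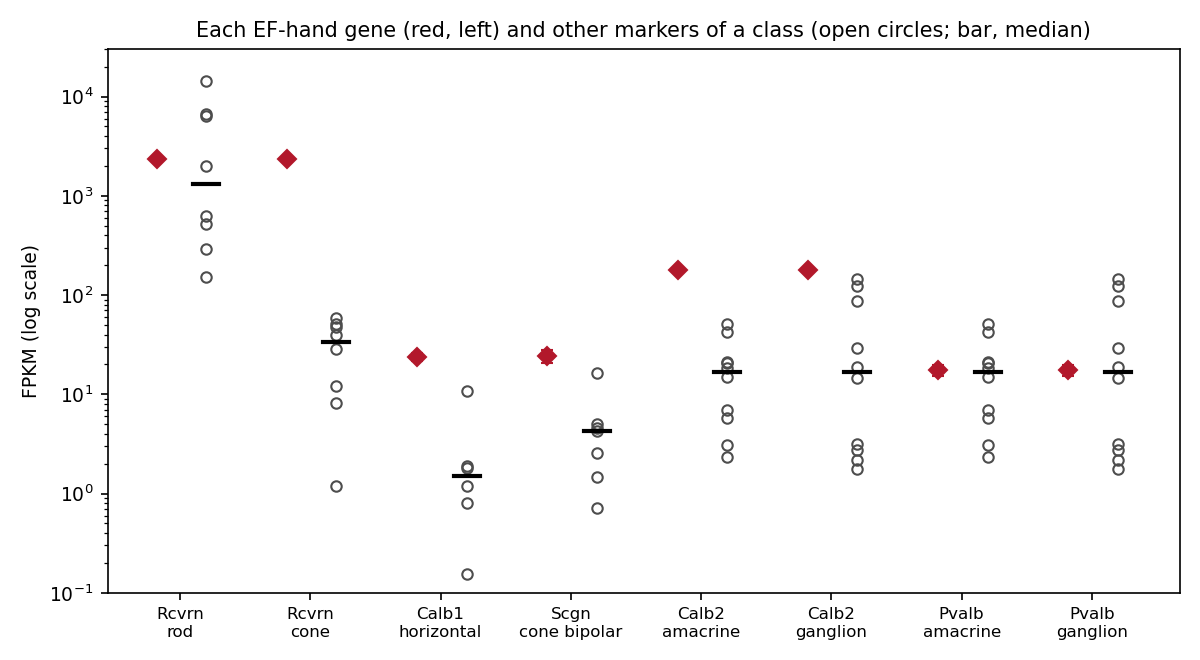
FPKM on a log axis of an EF-hand gene (red diamond, with deposited bounds) and, to its right, of each other marker of a cell class it labels (open circles; the bar is their median). Rcvrn lies inside the rod markers and above all cone markers, Calb1, Scgn and Calb2 lie above every marker of their class, and Pvalb lies at the amacrine and ganglion medians of 16.6 and 16.7 FPKM. Hpca and Ncald, not drawn here, also exceed every horizontal and cone bipolar marker.

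Hpca and Ncald encode hippocalcin and neurocalcin delta, sensors of the recoverin family that move to membranes on binding calcium; hippocalcin is named for its abundance in the hippocampus. The Hpca row (ENSRNOG00000006979) spans positions 151030063 to 151038262 of chromosome 5, and the Ncald row (ENSRNOG00000042978) positions 76320074 to 76414625 of chromosome 7. Hpca was listed at 43.9 FPKM (40.5 and 47.3) and Ncald at 21.3 FPKM (19.8 and 22.9), and Hpca was 2.06 times Ncald (1.86 to 2.28). Hpca lay high beside amacrine and ganglion markers. It was 2.64 times the amacrine median, above 8 of the 10 amacrine markers, and 2.63 times the ganglion median, above 7 of 10. Of the 2 leading amacrine markers, Gad1 was higher (Hpca at 0.865 times its level, 0.792 to 0.944) and Slc6a9, a glycine transporter, was not told apart from it (1.04, 0.952 to 1.14). Ncald lay lower in the amacrine and ganglion lists, at 1.28 times each median and above 6 of 10 markers in each. Against the rod and ON bipolar median, Hpca was at 1.59 times (3 of 7 markers higher) and Ncald at 0.775 times (4 of 7 higher). Against the cone median, Hpca was at 1.30 times (1 of 8 markers higher, 3 not told apart) and Ncald at 0.630 times (5 of 8 higher). Both were above all 7 cone bipolar and all 6 horizontal markers, and below all 8 rod markers. Such ratios do not show which cells hold the transcripts.

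Necab2 and Necab1 encode proteins with an EF-hand domain at the amino end and a second domain of another kind; NECAB2 is known to bind the adenosine receptor encoded by Adora2a and the metabotropic glutamate receptor mGluR5. The Necab2 row (ENSRNOG00000015084) spans positions 62834865 to 62861089 of chromosome 19, and the Necab1 row (ENSRNOG00000007256) positions 33184793 to 33414046 of chromosome 5. Necab2 was listed at 12.8 FPKM (11.01 and 14.5) and Necab1 at 5.55 FPKM (4.20 and 6.90). These were the lowest of the 9 genes, and Necab1 was the single one below the median symbol at 1 FPKM or more, at 0.603 times it. The third gene of the family, Necab3, was lower still at 1.81 FPKM: Necab2 was 7.06 times Necab3 (4.93 to 10.09) and Necab1 was 3.06 times it (2.04 to 4.61). The receptors that NECAB2 binds were rarer than Necab2, with Grm5 (mGluR5) at 2.26 FPKM and Adora2a (the adenosine receptor) at 0.854 FPKM, both named after their values were seen. Against cell classes, Necab2 was 0.769 times the amacrine median and 2.99 times the cone bipolar median. Its largest ratio was to the horizontal median, at 8.46 times. Necab2 was 0.766 times the ganglion, 0.464 times the rod and ON bipolar, 0.377 times the cone and 0.00973 times the rod median. Necab1 was 0.334 times the amacrine median and 1.30 times the cone bipolar median, with 3 of the 7 cone bipolar markers (Irx6 and, named after their values were seen, Vsx1 and Tacr3) not told apart from it. For Necab1 too the largest ratio was to the horizontal median, at 3.68 times. The others were 0.333 (ganglion), 0.202 (rod and ON bipolar), 0.164 (cone) and 0.00423 (rod). These marker ratios do not show which cells hold the transcripts.

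The 9 genes were then placed among their relatives, in 7 EF-hand family lists with 43 measured genes. Of these 43, 38 reached 1 FPKM, and of the 34 relatives that are not among the 9 genes, 29 did. The share of all symbols at that level, 61.0%, stands beside these and the family counts below. The median of the relatives was 13.3 FPKM, against 23.7 FPKM for the 9 genes. Rcvrn held 49.6% of the summed level of all 43. Ocm (oncomodulin), the other parvalbumin listed, had no row under that symbol.

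In the neuronal calcium sensor family all 13 genes reached 1 FPKM, and the middle level, 21.3 FPKM, was that of Ncald. The photoreceptor sensors formed the top, with Guca1b at 484 FPKM and Guca1a at 367 FPKM below Rcvrn. Of the visinin-like genes, Vsnl1 was at 39.1 FPKM and Hpcal1 at 38.7 FPKM, and Hpca was 1.12 times Vsnl1 (1.01 to 1.24) and 1.14 times Hpcal1 (1.02 to 1.26). The other visinin-like gene, Hpcal4, was lower at 19.9 FPKM: Hpca was 2.21 times Hpcal4 (2.01 to 2.44), and Ncald was not told apart from it (ratio 1.07, 0.980 to 1.18). The genes Kcnip1 to Kcnip4, whose proteins are subunits of potassium channels, kept a narrow range from 11.7 FPKM (Kcnip1) to 15.0 FPKM (Kcnip4), with Kcnip2 at 12.9 FPKM as a sum of 2 rows and Kcnip3 at 13.8 FPKM. Ncs1, a sensor made by many kinds of neurons, was the lowest at 5.81 FPKM, a level like that of Necab1 (Necab1 at 0.955 times it, 0.707 to 1.29).

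Among the calmodulin-like CaBP genes 5 of 6 reached 1 FPKM. Cabp4, which acts on the calcium channel of the photoreceptor synapse, was at 176 FPKM and was not told apart from Calb2 (Calb2 at 1.03 times it, 0.974 to 1.08). Cabp1 was at 46.05 FPKM and was not told apart from Hpca (Hpca at 0.954 times it, 0.827 to 1.10). The others were lower, with Cabp5 at 9.10 FPKM, Cabp2 at 6.17 FPKM, Caln1 at 2.36 FPKM and Cabp7 at 0.409 FPKM. Of the genes for calmodulin, the calcium sensor of all cells, Calm3 was at 118 FPKM, and the calmodulin-like gene Calml3 was listed at 0. The row named Calm2, at 242 FPKM, spans 1111 bases on a chromosome other than the one where RefSeq (assembly GRCr8) places that gene, so whether it measures Calm2 is uncertain.

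The S100 family, small EF-hand proteins of many cell types, had a median of 6.71 FPKM, below 8 of the 9 genes. Of its 13 genes 10 reached 1 FPKM, beside 61.0% of all symbols. S100a1 led at 50.1 FPKM. S100a16 and S100a10, both at 24.6 FPKM, and the glial gene S100b at 23.6 FPKM lay at the level of Scgn and Calb1. S100a13 was at 16.7 FPKM and S100a4 at 12.4 FPKM. The remaining members ran from S100a11 at 6.71 FPKM through S100a6 at 4.75, S100a8 at 3.64, S100a3 at 1.22 and S100a9 at 0.596 FPKM to S100a5 and S100g, which were listed at 0. S100g encodes the short calbindin of the intestine, which is no close relative of Calb1 despite its name.

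**Figure D3:**
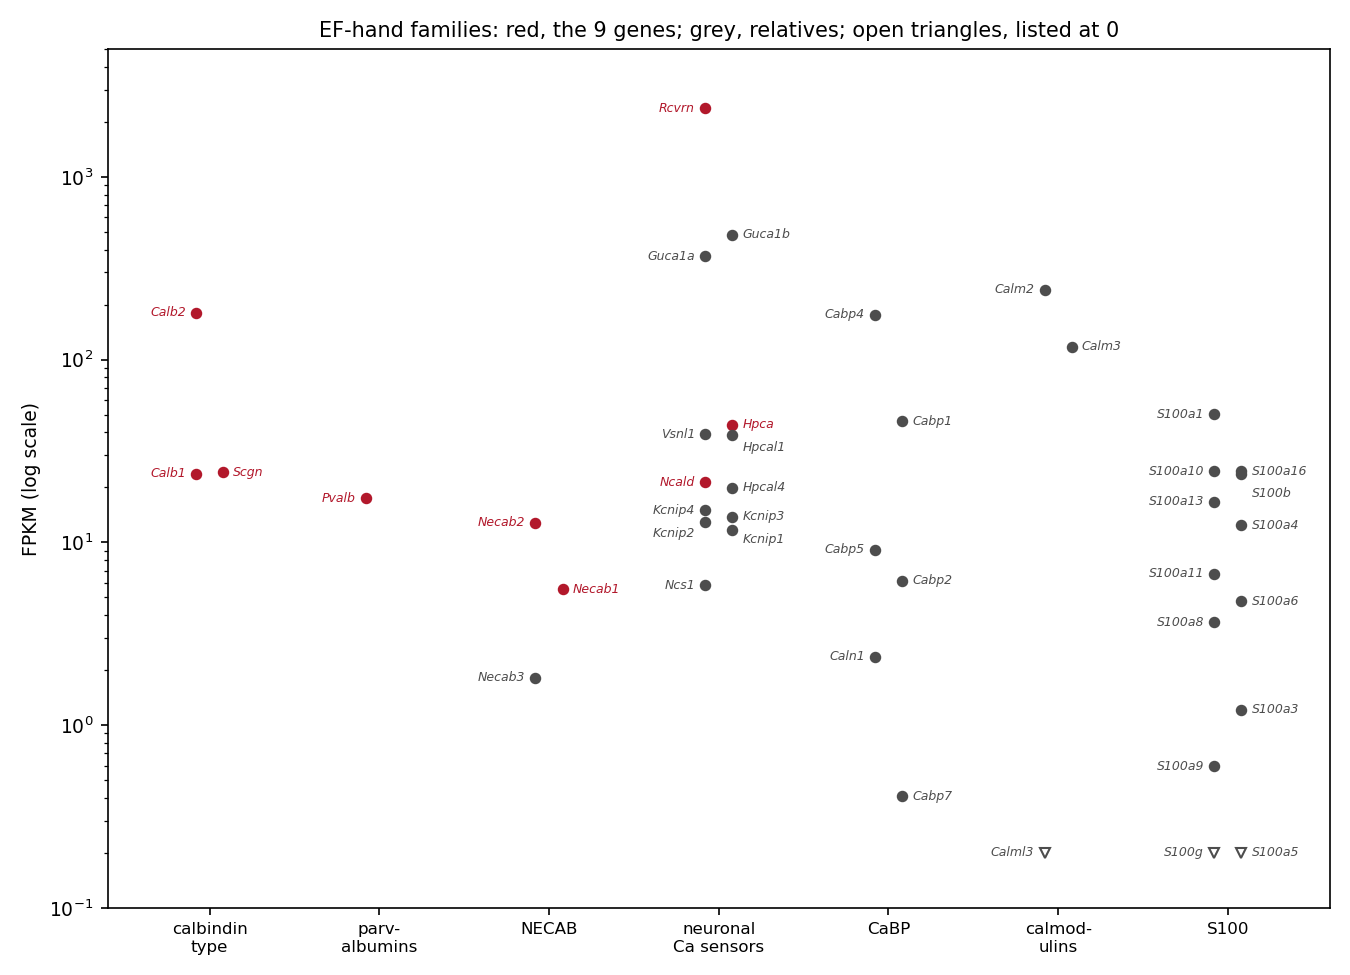
FPKM on a log axis of the genes in 7 EF-hand families; red marks the 9 genes, grey their relatives, and open triangles at the bottom genes listed at 0. Rcvrn at 2372 FPKM is far above Guca1b at 484 FPKM, the next sensor, and the relatives spread from 484 FPKM down to 0.

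Position and gene neighbours were features that the choice of the 9 genes did not use. They lie on 5 chromosomes. Calb1 and Necab1 lie 803867 bases apart on chromosome 5 with 1 row between them, Tmem64, at 1.73 FPKM. Calb2 and Necab2 share chromosome 19 at a distance of 10.5 Mb, and Ncald and Pvalb share chromosome 7 at 43.01 Mb. Calb1 was thus 4.27 times its neighbour Necab1 (3.31 to 5.51), and Calb2 was 14.1 times Necab2 (12.3 to 16.3).

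Set against the nearest named row on each side, taken by position and not by value, 8 of the 9 genes were higher than both, as were 28.6% of all named rows and 57.1% of named rows at 5 FPKM or more, the range in which the 9 genes lie. The 57.1% pools all named rows from 5 FPKM up, and most of the 9 genes lie well above that limit. No share was computed for rows at their levels. The difference went beyond counting error for 7 of the 8, and the matching share of all named rows was not computed either. The exception to the 8 was Necab1, at 5.55 FPKM, beside Tmem55a at 15.7 FPKM. Rcvrn was 58.9 times Gas7, a row that ends 4695 bases before it, and 1009 times Glp2r on the other side. Some neighbours were very near: Tmem54 ends 111 bases before Hpca and was at 1.16 FPKM, and Osgin1 ends 834 bases before Necab2 and was at 0.638 FPKM. Pvalb was not told apart from Ift27 at 15.0 FPKM (ratio 1.16, 0.948 to 1.43). The Necab1 row encloses 4 other rows, of which 3 were listed at 0 and 1 was at 0.142 FPKM; none of the other 8 genes overlaps a row. Whether reads were counted by strand is not given in the sources used here, so reads of enclosed rows cannot be told from those of Necab1.

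**Figure D4:**
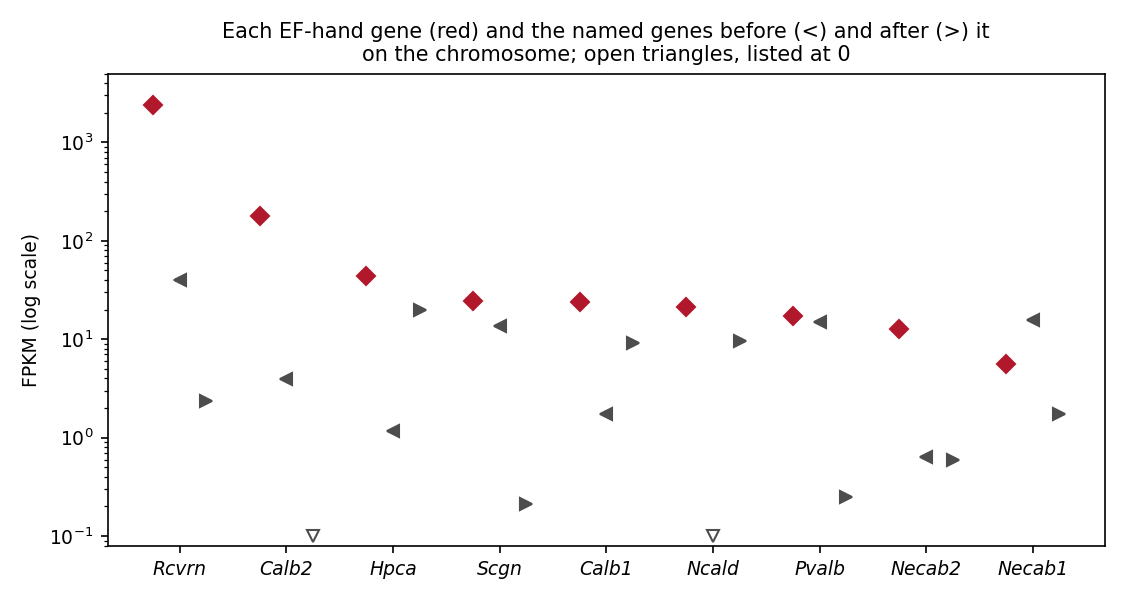
FPKM on a log axis of each of the 9 EF-hand genes (red diamonds) and of the nearest named gene before it (triangles pointing left) and after it (triangles pointing right) on the chromosome; open triangles mark genes listed at 0. Every red diamond is the highest of its 3 points except for Necab1, which lies under Tmem55a at 15.7 FPKM.

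The numbers behind these levels differ. Implied fragments, read from the deposited bounds, ran from 68.0 for Necab1 through 188 for Scgn, 210 for Necab2, 237 for Pvalb, 443 for Calb1, 671 for Hpca, 799 for Ncald and 2747 for Calb2 to 19240 for Rcvrn, a relative counting error of 12.1% at the low end and 0.721% at the high end. Because FPKM divides by length, Scgn is 4th by level and 8th by fragments, while Ncald is 6th by level and 3rd by fragments: Ncald had 37.4 fragments for each FPKM and Scgn 7.75.

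The table carries the markers of neural retina. All 8 rod, 8 cone, 7 rod and ON bipolar, 10 amacrine, 10 ganglion and 6 Müller glia markers reached 1 FPKM, as did 6 of 7 cone bipolar and 4 of 6 horizontal cell markers. Of all symbols 61.0% did, a share close to that of the horizontal cell markers. Markers of other tissue were present too: 4 of 5 pigment epithelium genes and 5 of 5 lens genes reached 1 FPKM, with summed levels of 54.2 and 592 FPKM, led by Rgr at 24.0 FPKM and Cryaa at 427 FPKM. The lens list also held the crystallin genes Crybb2 at 118 FPKM and Crygs at 43.9 FPKM, and the lens fibre genes Mip at 1.60 and Lim2 at 1.81 FPKM. Of these, Crygs, Mip and Lim2 were named after their values were seen. Neural retina also makes crystallins. Of 5 microglia genes 4 reached 1 FPKM, with a summed level of 11.2 FPKM. The part of lens, pigment epithelium and microglia in the levels of the 9 genes was not tested. The row named Opn1mw in the cone list, at 28.4 FPKM, lies on another chromosome than the RefSeq gene, and without it Rcvrn was 60.3 times the cone median. The ratios of Hpca, Ncald, Necab2 and Necab1 to the cone median include that row and were not recomputed without it.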

How the data were processed

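The authors deposited 1 gene table of FPKM values with a lower and an upper bound per gene, in the tracking format of Cufflinks per the file headers. Cufflinks 2.0.8 and build rn5 come from the submitters' processing notes; aligner, annotation, confidence level and depth are not stated there. Of 26406 rows, 20601 carry a symbol; the rest stayed unnamed. Rows with the same symbol, ignoring case, were summed (19623 symbols). Bounds were read as 2 standard errors of a count, which gives an implied fragment number per gene; among 11492 rows with up to 200 implied fragments, 69.6% lay within 0.02 of a whole number. For 7 of the 9 genes the number exceeds 200, where this reading is an assumption. Ratios have 95% intervals on the log scale from these numbers, with no p-value. Genes were "told apart" where the interval leaves out 1.

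Starts in the table count from 0: of 1047 olfactory receptor rows under 1000 bases, end minus start was divisible by 3 in 1042. Starts are printed with 1 added. The 9 genes and the marker lists were chosen with earlier results of these data known. Named are all 9 genes, the genes of the EF-hand lists and the leading genes of other lists, except for items that are not reported here; other genes were named after their values were seen, or were taken by position. Sept4 and Ocm had no row under those symbols. Python 3.11.15, numpy 2.4.6, pandas 2.3.3, scipy 1.17.1 and matplotlib 3.10.9 were used.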

Additional observations from a re-analysis of the deposited data

How the results depend on the processing

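No paired analysis was possible because the only value column names no library, and for the same reason none could be left out. Keeping the highest row per symbol could change little, since each of the 9 genes has 1 row and Kcnip2 alone among the listed genes was a sum. All 27 values recomputed this way stayed within their yardsticks, which therefore says little. The yardstick was a binomial 95% interval over all symbols for percentiles and the counting error of the gene for ratios to markers. For counts and family medians it was a factor of 1.5. The median percentile of the 9 genes among all symbols, 87.8, was 79.99 among symbols at 1 FPKM or more, a smaller pool by construction. With the geometric mean of the markers in place of their median, Rcvrn was 1.66 times rods and 124 times cones, Calb1 was 17.8 times horizontal, Scgn 7.34 times cone bipolar, Calb2 14.8 times amacrine and 12.5 times ganglion, and Pvalb 1.42 times amacrine and 1.20 times ganglion markers. With only markers at 1 FPKM or more, Calb1 was 12.7 times the horizontal median. Without the Opn1mw row, added after seeing the data, Rcvrn was 60.3 times the cone median. Of all 74 recomputed values, 20 moved beyond their yardstick, among them every ratio to a geometric mean. The ratios given here all stayed above 1. For Pvalb this says little, since its ratios to the medians were 1.05 and 1.04, and its place near the middle depends on the use of the median. The count of 6 of 8 neighbouring pairs told apart was the same with bounds read at the 95% normal quantile and with implied fragments, though the fragments order the genes differently. The count of 38 EF-hand genes at 1 FPKM or more was 33 at 5 FPKM and 40 above 0. The planned comparison of protein sequences was not run.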
